A study of Arabidopsis thaliana and Zea mays with 36 samples.

Results

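The 8 genes described here code for proteins of the inner mitochondrial membrane that let electrons or protons pass without the production of ATP. They were chosen by locus from the Arabidopsis linear RNA table, which holds 27655 genes: the alternative oxidases AOX1A (AT3G22370), AOX1B (AT3G22360), AOX1C (AT3G27620) and AOX1D (AT1G32350), the type II NAD(P)H dehydrogenases NDA1 (AT1G07180), NDA2 (AT2G29990) and NDB2 (AT4G05020), and the uncoupling protein UCP1 (AT3G54110, PUMP1 in RefSeq). All 8 were found. UCP1 is a carrier and neither an oxidase nor a dehydrogenase, and it is described last among the 8. AOX1A and AOX1B are neighbours on chromosome 3, with no other protein-coding gene between them in RefSeq.

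Linear RNA was sequenced from rosette leaves of wild-type Arabidopsis ecotype Col-0, grown at 22 °C with 16 h of light and 8 h of dark, with leaves of 4 plants pooled per sample. The 10 libraries fall into a well-watered group (WW) and 4 groups under rationed water (DT2, DT3, DT4 and DT5), with 2 biological replicates each. Water was rationed from 21 days after planting, and all plants were of the same ecotype. The sources used here do not say which soil moisture belongs to each label. Libraries for circular RNA (circRNA, RNA joined end to end by back-splicing) were made at the same levels after RNase R had digested linear RNA.

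In plant mitochondria, electrons from NADH usually reach oxygen through complexes I, III and IV, which pump protons that drive ATP synthesis. An alternative oxidase takes electrons from reduced ubiquinone directly to oxygen, past complexes III and IV. Type II dehydrogenases bring electrons from NAD(P)H to ubiquinone past complex I, with NDA proteins on the matrix side and NDB proteins on the outer side of the membrane. Neither pumps protons. An alternative oxidase with a type II dehydrogenase thus forms a respiratory chain that can oxidise surplus reductant in stressed leaves when little ATP is needed.

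The values are TPM, transcript abundances that are scaled by transcript length, so that levels can be compared between genes, and that sum to the same total in every library, so that they keep no sequencing depth. Between 16814 and 17885 genes reached 1 TPM per library, and the correlation between the libraries of a group was 0.989 to 0.994 over all genes in log2(TPM + 1). The 6 leaf markers (RBCS1A, RBCS2B, RCA, CA1, LHCB1.3 and LHCB3) summed to between 69681 and 73123 TPM in WW, between 23144 and 30460 TPM at DT4 and between 3346 and 4068 TPM at DT5. All 6 were above 1 TPM in every library. Of 4 root markers PYK10 was seen, at 85.4 and 57.1 TPM in WW and 6.97 and 4.5 TPM at DT5, and the other 3 were listed at 0 in all 10 libraries. PYK10 was highest at DT3, at 198 and 128 TPM, where it was called higher than in WW (limma adjusted p = 0.0236) but not after rescaling to the median gene (adjusted p = 0.0582). The 5 seed markers summed to 0.11 and 0.09 TPM in WW and to 5.08 and 5.91 TPM at DT5. OLEO1 and OLEO2, which passed the filter only through the DT5 libraries, were called higher at DT5 (limma adjusted p = 3.79e-04 and 1.23e-05). At DT5 CRC and SESA3 were listed at 0, and CRA1 was at 0.25 and 0 TPM. OLEO2 was also called higher at DT4, at 0.89 and 0.77 TPM. The 4 flower and pollen markers summed to 2.39 TPM or less in any library. The part of these marker changes in the changes given below was not tested, and in whole leaves fewer cells of a type cannot be told apart from less RNA per cell.

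Changes are differences in log2(TPM + 1) with the standard error (SE) of limma, a linear model fitted over all 18938 genes that reached 1 TPM in at least 2 libraries, with Benjamini-Hochberg adjustment over the same genes. An adjusted p under 0.05 counts as a call. The median gene lay above WW, by 0.12 in DT2, by 0.22 in DT3, by 0.41 in DT4 and by 0.26 in DT5. Calls were therefore also made after each library had been rescaled to the median gene, over 18949 genes. Of the 8 genes 7 were tested, since AOX1B was listed at 0 in all 10 libraries. AOX1D passed only through 1 DT3 library and the DT4 and DT5 libraries, so that a difference was built into its selection for testing.

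Most of the changes were called at DT4 and DT5. None of the 7 tested genes was called at DT2 by limma (NDA1 and NDB2 had an unadjusted p under 0.05, 2 genes), where 1.88% of all genes were called. After rescaling 1, NDA1, was lower at DT2, beside 0.681% of all genes. At DT3 1, NDA1, was lower, where 16.8% of all genes were called and 2.22% were lower, and after rescaling NDA1 and NDB2 were lower, beside 5.8%. At DT4 all 7 tested genes were called, 6 higher and 1 lower, beside 64.7% of all genes, 48.3% higher and 16.4% lower. After rescaling 4 of them were higher and 1 lower at DT4, beside 22.4% and 29.7% of all genes. At DT5 again 6 were higher and 1 lower, beside 71.5% of all genes, 43.4% higher and 28.1% lower, and after rescaling 5 were higher and 1 lower, beside 31.3% and 37% of all genes. Calls were thus common among all genes at DT4 and DT5, and the count for the 7 genes is to be read against that. AOX1D, among the genes called higher at both levels, was admitted to the test by libraries of these groups. The median change of the 7 tested genes was 0.91 at DT4 and 1.76 at DT5, against 0.41 and 0.26 for all genes.

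**Figure D1:**
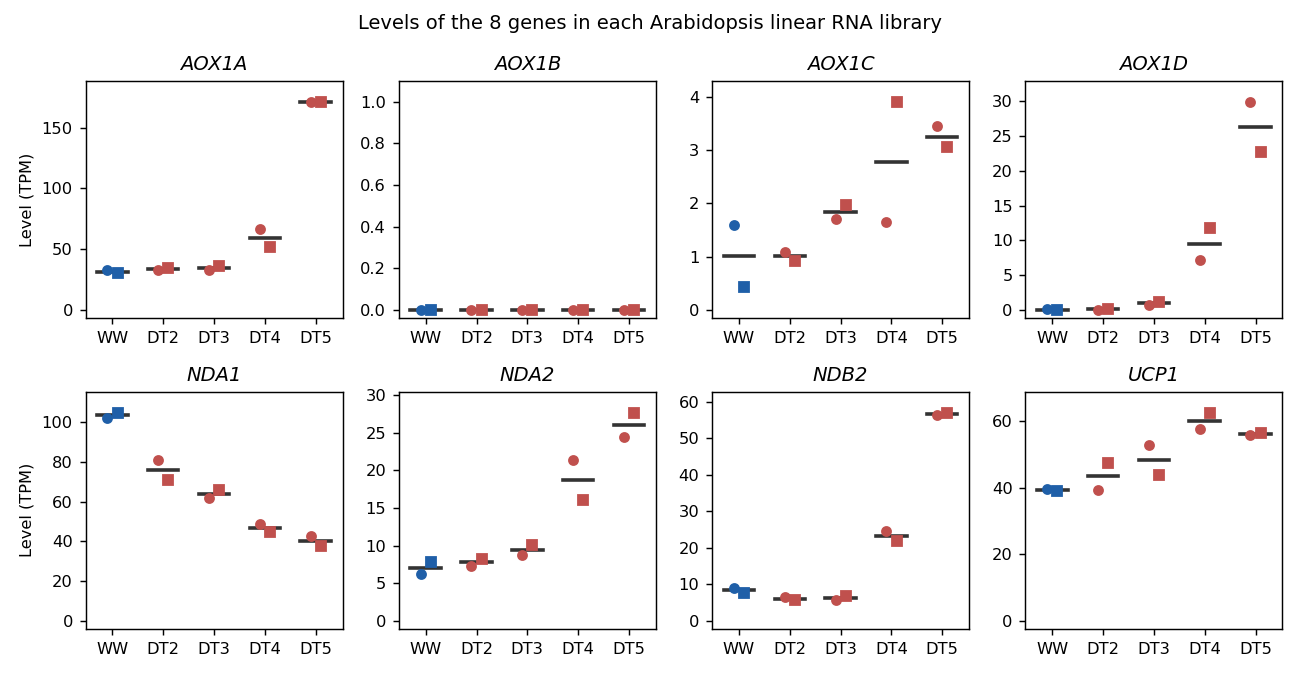
TPM of each of the 8 genes (y axis, linear, a scale of its own in each panel) in the 10 Arabidopsis linear RNA libraries by group (x axis); circles and squares are libraries 1 and 2 of a group, and bars are group means of 2. AOX1A and NDB2 were high at DT5 and intermediate at DT4, NDA1 was highest in WW, and AOX1B was listed at 0 throughout.

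AOX1A, the main stress-responsive alternative oxidase of Arabidopsis leaves, rose at DT4 and again at DT5. It was at 33.1 and 30 TPM in the WW libraries, 32.7 and 34.5 at DT2, 32.7 and 36.3 at DT3, 66.6 and 51.7 at DT4, and 171 and 171 at DT5. The WW, DT2 and DT3 libraries overlapped, those of DT4 lay above all of them, and those of DT5 above all of DT4. The mean went from 31.6 ± 2.21 TPM in WW to 171 ± 0.149 TPM at DT5 (SD, n = 2). In the limma fit this change was 2.40 (SE 0.13, adjusted p = 1.53e-07), and 4.86% of genes rose more. At DT4 the change was 0.88 (SE 0.13, adjusted p = 2.56e-04), and it was 0.37 after rescaling (adjusted p = 0.0301), still called. Before rescaling 23.4% of genes rose more at DT4. AOX1A differed between DT3 and DT4 by 0.75 (SE 0.13, adjusted p = 9.74e-04) and between DT4 and DT5 by 1.53 (SE 0.13, adjusted p = 1.63e-05).

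AOX1D, a member of the family known in Arabidopsis for its response to inhibition of the cytochrome pathway and for its rise in mutants of AOX1A, was almost absent from watered leaves. It was at 0.11 and 0 TPM in WW, 0 and 0.17 at DT2, 0.64 and 1.2 at DT3, 7.11 and 11.7 at DT4, and 29.9 and 22.7 at DT5. Its libraries did not overlap between DT2, DT3, DT4 and DT5. AOX1D passed the filter only through DT3, DT4 and DT5 libraries, so its calls at DT4 and DT5 come from groups that admitted it. The change on the log2(TPM + 1) scale was 3.27 at DT4 (SE 0.27, adjusted p = 7.91e-06) and 4.68 at DT5 (SE 0.27, adjusted p = 2.31e-07), and 0.892% of genes rose more at DT5. With a pseudocount of 0.1 in place of 1 these changes were 5.99 and 7.50, so their size depends on how values near 0 are treated. The difference from WW at DT3, 0.85 (SE 0.27), was not called (adjusted p = 0.0554), and was called with a pseudocount of 0.1 (adjusted p = 0.0174) and without DT4 replicate 1 or DT4 replicate 2 (adjusted p = 0.0341 and 0.0346). The rise from DT4 to DT5 was 1.41 (SE 0.27, adjusted p = 1.94e-03), and it was not called with a pseudocount of 0.1 (adjusted p = 0.0624).

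AOX1C, which is known mainly from flowers and growing organs, stayed at low levels in all groups. It was at 1.6 and 0.42 TPM in WW, 1.09 and 0.92 at DT2, 1.7 and 1.97 at DT3, 1.65 and 3.9 at DT4, and 3.44 and 3.05 at DT5. The DT5 libraries lay above both WW libraries, and those of DT4 spread over the range of DT3 and DT5. The change at DT5 was 1.14 (SE 0.34, adjusted p = 0.0118), and it was 0.71 without WW replicate 2 (adjusted p = 0.112), 1.08 without DT5 replicate 1 (adjusted p = 0.0630) and 1.83 with a pseudocount of 0.1. That at DT4 was 0.91 (SE 0.34, adjusted p = 0.0377), and this call was lost under 13 of 17 alternatives, among them rescaling (0.61, adjusted p = 0.161), the replicate block (adjusted p = 0.0516) and leaving out WW replicate 2 (0.47, adjusted p = 0.288) or DT4 replicate 2 (0.46, adjusted p = 0.268).

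AOX1B, known in Arabidopsis from flowers, was listed at 0 in all 10 libraries, and no fold change is given. Reads that AOX1A, AOX1B and AOX1C share may have been divided between them in the authors' estimate, and the way in which this was done is not stated. Of the 8 genes, AOX1D and NDB2 had 2 transcripts in the table and the others 1. The transcript AT1G32350.2 of AOX1D was listed above 0 in 2 libraries, at 1.06 TPM in DT4 and 1.92 TPM in DT5, and the transcript AT4G05020.2 of NDB2 was listed at 0 in all 10.

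The oxidase transcripts changed in total and in make-up. The summed level of the AOX1 genes was 34.8 and 30.4 TPM in WW, 75.4 and 67.4 at DT4, and 205 and 197 at DT5. AOX1A made up 95.1% and 98.6% of this sum in WW, 88.4% and 76.8% at DT4, and 83.7% and 86.9% at DT5. AOX1D made up 0.316% and 0% in WW, 9.44% and 17.4% at DT4, and 14.6% and 11.5% at DT5. AOX1A thus held most of the oxidase transcripts in every library, and AOX1D took the place of AOX1C as the next most abundant one at DT4 and DT5.

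**Figure D2:**
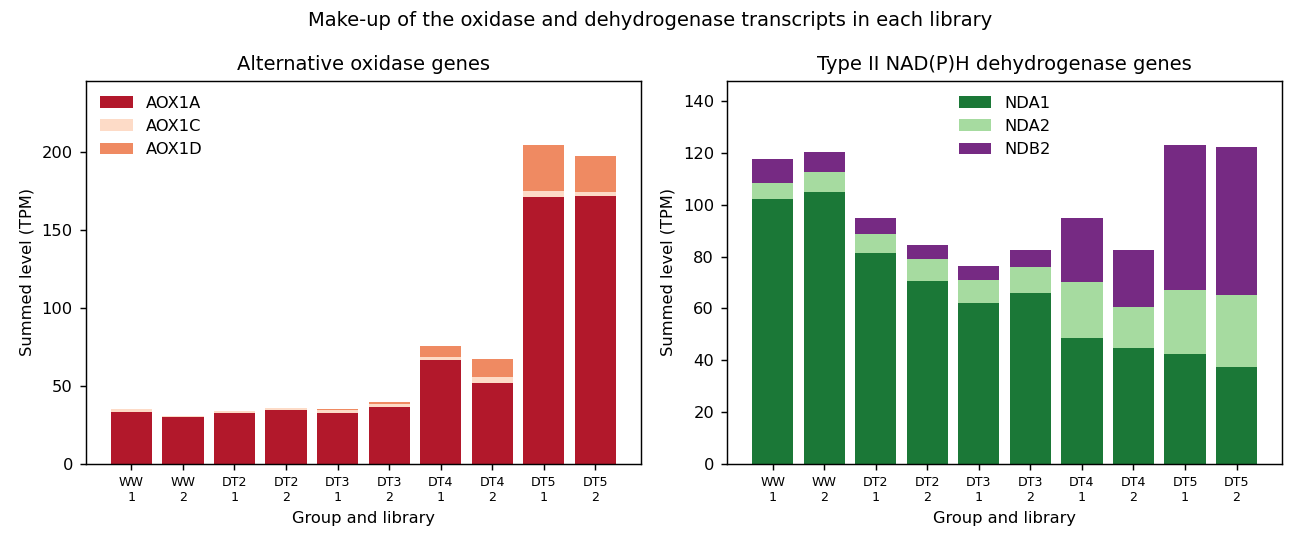
Stacked bars of TPM (y axis, from 0) in each library (x axis, group and library number) for the oxidases AOX1A, AOX1C and AOX1D (left; AOX1B was listed at 0) and for NDA1, NDA2 and NDB2 (right). The summed oxidase level rose from 34.8 and 30.4 TPM in WW to 205 and 197 TPM at DT5, while the sum of the dehydrogenases was 118 and 120 TPM in WW and 123 and 122 TPM at DT5 with NDB2 in place of much of NDA1.

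NDB2, the external NADH dehydrogenase that calcium stimulates and that is known to be expressed together with AOX1A, was higher at DT4 and DT5. It was at 8.99 and 7.66 TPM in WW, 6.39 and 5.57 at DT2, 5.66 and 6.79 at DT3, 24.6 and 21.9 at DT4, and 56.3 and 57 at DT5. Both libraries of DT2 and both of DT3 lay below those of WW, though neither difference was called (-0.42, SE 0.15, adjusted p = 0.203 at DT2; -0.37, SE 0.15, adjusted p = 0.109 at DT3). That at DT3 was called lower after rescaling (-0.59, adjusted p = 0.0325). The change from WW was 1.38 at DT4 (SE 0.15, adjusted p = 3.83e-05; 0.90 after rescaling) and 2.63 at DT5 (SE 0.15, adjusted p = 2.05e-07), and 3.94% of genes rose more at DT5. NDB2 differed between DT3 and DT4 by 1.75 (SE 0.15, adjusted p = 2.11e-05) and between DT4 and DT5 by 1.25 (SE 0.15, adjusted p = 1.16e-04).

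NDA2, an internal dehydrogenase that faces the matrix, rose with a smaller change. It was at 6.25 and 7.83 TPM in WW, 7.3 and 8.18 at DT2, 8.79 and 10 at DT3, 21.5 and 16.1 at DT4, and 24.5 and 27.7 at DT5. The WW and DT2 libraries overlapped, and each later level lay above the one before it. The change was 1.29 at DT4 (SE 0.18, adjusted p = 1.75e-04; 0.82 after rescaling, adjusted p = 4.42e-03) and 1.76 at DT5 (SE 0.18, adjusted p = 1.07e-05), where 8.62% of genes rose more. Between DT4 and DT5 the difference of 0.47 (SE 0.18) was not called (adjusted p = 0.0536), and it was called after rescaling (0.61, adjusted p = 0.0226) and without DT4 replicate 1 (0.67, adjusted p = 0.0225). It was 0.27 without DT4 replicate 2 (adjusted p = 0.318).

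NDA1, the other internal dehydrogenase, whose transcript is known to be induced by light in Arabidopsis leaves, was lower than in WW at DT3, DT4 and DT5, and was the only one of the 7 tested genes called lower at DT4 and DT5. It was at 102 and 105 TPM in WW, 81.2 and 70.7 at DT2, 62 and 65.9 at DT3, 48.7 and 44.6 at DT4, and 42.4 and 37.5 at DT5. No library of a level overlapped with those of the level before it. The mean was 104 ± 1.82 TPM in WW and 40 ± 3.49 TPM at DT5 (SD, n = 2). The change was -0.69 at DT3 (SE 0.11, adjusted p = 4.19e-03), -1.14 at DT4 (SE 0.11, adjusted p = 1.99e-05) and -1.36 at DT5 (SE 0.11, adjusted p = 2.22e-06). At DT5 86.5% of genes had a higher change than NDA1, and the rest of the other genes fell as far or further. At DT2 the difference of -0.45 (SE 0.11) was not called (adjusted p = 0.0766), and it was called after rescaling (-0.58, adjusted p = 0.0295). Of the steps between neighbouring levels, that from DT3 to DT4 was called (-0.45, SE 0.11, adjusted p = 6.70e-03) and those from DT2 to DT3 (-0.24, adjusted p = 0.512) and from DT4 to DT5 (-0.22, adjusted p = 0.127) were not.

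The internal dehydrogenases therefore moved in opposite directions from WW to DT4 and DT5. NDA1 was 16.4 and 13.4 times NDA2 in the WW libraries, 7.06 and 6.58 times at DT3, and 1.73 and 1.35 times at DT5, on the TPM scale. Summed over NDA1, NDA2 and NDB2, the level was 118 and 120 TPM in WW, 76.5 and 82.7 at DT3, and 123 and 122 at DT5. NDA1 held 87% and 87.1% of this sum in WW and 34.5% and 30.7% at DT5, and NDB2 held 7.65% and 6.36% in WW and 45.7% and 46.7% at DT5. The summed level at DT5 was close to that in WW, with the external NDB2 as the most abundant of the 3 in place of the internal NDA1. AOX1A was 3.69 and 3.92 times NDB2 in WW and 3.04 and 3.01 times at DT5, with 5.12 to 6.2 times at DT2 and DT3 and 2.7 and 2.37 times at DT4.

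UCP1, an uncoupling protein also known to carry aspartate and glutamate, was called higher at DT4 and DT5 before rescaling and at no level after it. It was at 39.7 and 38.9 TPM in WW, 39.4 and 47.3 at DT2, 52.9 and 43.8 at DT3, 57.8 and 62.6 at DT4, and 55.8 and 56.3 at DT5. The DT4 and DT5 libraries all lay above those of WW, DT2 and DT3. The change was 0.60 at DT4 (SE 0.12, adjusted p = 2.03e-03) and 0.50 at DT5 (SE 0.12, adjusted p = 4.46e-03), where 40.6% of genes rose more. After rescaling both calls were lost, with changes of 0.10 (adjusted p = 0.527) and 0.15 (adjusted p = 0.314).

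**Figure D3:**
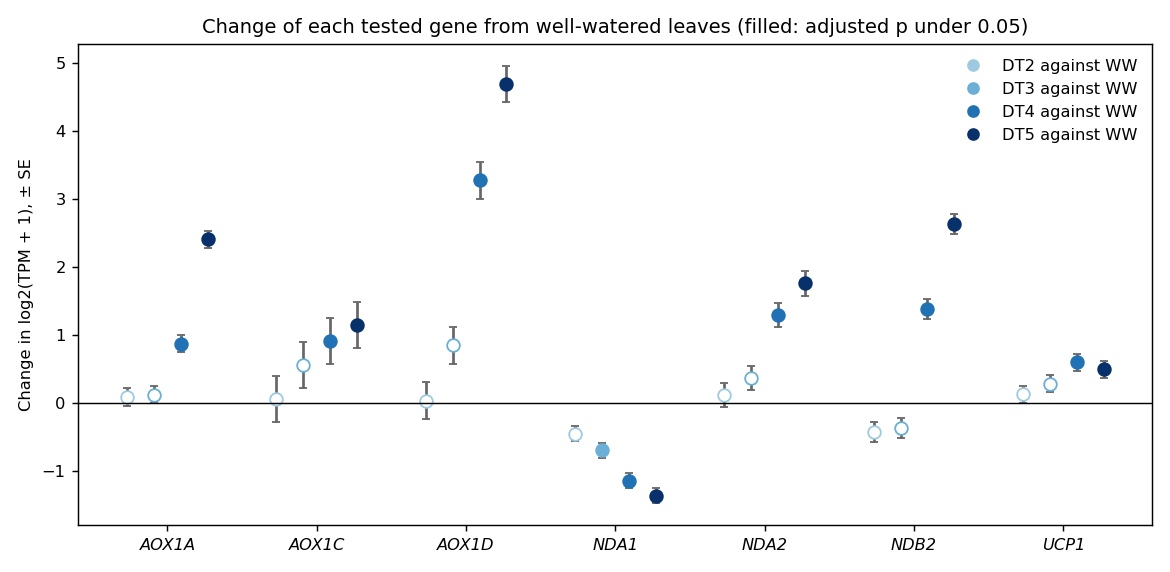
Change in log2(TPM + 1) from WW (y axis) for the 7 tested genes (x axis) at DT2 to DT5, from light to dark; bars are the SE of limma, and filled points have an adjusted p under 0.05. AOX1A, AOX1D, NDA2 and NDB2 rose at DT4 and DT5, also after rescaling; the calls of UCP1 were lost after rescaling, and NDA1 lay below WW at every level.

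From level to level, 0 of the 7 tested genes differed between DT2 and DT3 by limma (1 had an unadjusted p under 0.05), where 0.0792% of all genes were called. Between DT3 and DT4 4 were higher (AOX1A, AOX1D, NDA2 and NDB2) and 1 lower (NDA1), beside 53.6% of all genes called, 33.6% higher and 20% lower. Between DT4 and DT5 3 were higher (AOX1A, AOX1D and NDB2) and 0 lower, beside 46.3% of all genes called, 16% higher and 30.3% lower. After rescaling NDA2 was called too, so that 4 were higher, beside 21.8% of all genes. AOX1D, counted here and in the test over the 5 groups, was admitted by libraries in which it was high. Tested over the 5 groups together, 7 of 7 differed, beside 81.8% of all genes, and 5 after rescaling, beside 75%. Those not called after rescaling were AOX1C (adjusted p = 0.108) and UCP1 (adjusted p = 0.726). The call of AOX1C over the 5 groups (adjusted p = 0.0330) was lost under 12 of 16 alternatives, with adjusted p from 0.0088 to 0.109 over all of them.

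The order of the genes by level changed between watered leaves and DT5. In WW the means were 104 ± 1.82 TPM for NDA1, 39.3 ± 0.587 for UCP1, 31.6 ± 2.21 for AOX1A, 8.33 ± 0.941 for NDB2, 7.04 ± 1.12 for NDA2, 1.01 ± 0.834 for AOX1C and 0.055 ± 0.0778 for AOX1D (SD, n = 2). NDB2 and NDA2 overlapped, and the other neighbours did not. At DT5 AOX1A came first at 171 ± 0.149 TPM, before NDB2 at 56.6 ± 0.537, UCP1 at 56.0 ± 0.368, NDA1 at 40 ± 3.49, AOX1D at 26.3 ± 5.09, NDA2 at 26.1 ± 2.29 and AOX1C at 3.25 ± 0.276 (SD, n = 2). There NDB2 and UCP1 overlapped, as did AOX1D and NDA2.

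As a description over the 10 libraries, which share 5 groups and are not independent points, the Pearson correlation of AOX1A in log2(TPM + 1) was 0.96 with NDB2, 0.928 with AOX1D, 0.924 with NDA2, 0.70 with AOX1C, 0.641 with UCP1 and -0.822 with NDA1. Of all tested genes 4.36% had a higher correlation with AOX1A than NDB2 had. The 3 genes most like AOX1A were the clock-related MYB gene RVE2 (AT5G37260, 0.999), SDH1-1 (AT5G66760, 0.998), which codes for a subunit of succinate dehydrogenase, and DBP1 (AT2G25620, 0.998). Those most like NDB2 were AT2G30300 (0.998), CYP89A5 (AT1G64950, 0.997) and CYP71B26 (AT3G26290, 0.996). Those most like AOX1D were AT3G56310, PDIL1-1 (AT1G21750), a protein disulfide isomerase, and ADNT1 (AT4G01100), an adenine nucleotide transporter of mitochondria, all at 0.993 to 0.994. Among the genes most like NDA1 were the chloroplast beta-amylase gene CT-BMY (AT4G17090, 0.988) and the myrosinase gene TGG2 (AT5G25980, 0.987), beside AT1G15140 (0.988). For NDA2 they were AT3G62190, AT2G36220 and AT3G16990, all at 0.994. The genes most like UCP1 were GAS41 (AT5G45600), AL5 (AT5G20510) and AT4G16765, at 0.971 to 0.972, and those most like AOX1C were AT3G15890, AT5G41860 and AT5G25820, at 0.943 to 0.952.

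The other genes of the alternative pathway and of uncoupling did not follow one direction. Of 11 listed genes 8 were tested, and at DT5 4 were higher (IM, DIC1, DIC3 and UCP2) and 3 lower (NDB1, NDC1 and DIC2), beside 43.4% and 28.1% of all genes, with a list median of 0.22 against 0.26 for all genes. DIC3 passed the filter only through its DT3 and DT5 libraries, at 1.54 to 4.05 TPM, so that its call at DT5 came from a group that admitted it. IM (AT4G22260), the plastid terminal oxidase that is related to the mitochondrial ones, went from 39.3 and 37.2 TPM in WW to 113 and 111 at DT5 (1.53, SE 0.10, adjusted p = 5.04e-07). NDB1 (AT4G28220), the external dehydrogenase for NADPH, went from 11.7 and 10.6 TPM to 6.55 and 5.06 (-0.84, SE 0.16, adjusted p = 7.89e-04), against the direction of its relative NDB2. UCP2 (AT5G58970), named like DIC1, DIC3 and NDC1 after its values were seen, was called higher at DT5 (0.40, SE 0.16, adjusted p = 0.0402), and after rescaling it was not (0.06, adjusted p = 0.746).

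The dicarboxylate carriers, which belong to the family of UCP1, differed among themselves. DIC2 (AT4G24570) was at 19.3 and 57.7 TPM in WW, 97 and 71.1 at DT3, and 7.93 and 6.03 at DT4, a change of -3.41 from DT3 to DT4 (SE 0.40, adjusted p = 1.13e-04). Its WW libraries stood far apart. DIC1 (AT2G22500, UCP5 in RefSeq) was at 34.1 and 21.9 TPM at DT3, 10 and 10.4 at DT4, and 31 and 35.1 at DT5, so that it fell from DT3 to DT4 (-1.34, SE 0.24, adjusted p = 1.28e-03) and rose from DT4 to DT5 (1.60, SE 0.24, adjusted p = 4.94e-04). AOX2 (AT5G64210), NDB3 (AT4G21490) and NDB4 (AT2G20800) did not pass the filter. AOX2 was listed at 0 in the 6 libraries of WW, DT2 and DT3 and at 0.34 to 1.19 TPM at DT4 and DT5, NDB3 was at 0.04 to 1.35 TPM in the 10 libraries, and NDB4 was at 0.07 TPM in 1 library and listed at 0 in 9.

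Of 10 listed regulators of AOX1A known from Arabidopsis 8 were tested at DT5. Of these 6 were higher and 1 lower, beside 43.4% and 28.1% of all genes, and the counts were the same after rescaling, beside 31.3% and 37%. The list median before rescaling was 1.12, against 0.26 for all genes. The list mixes activators with repressors, and the repressor WRKY15 is among the 6, so the counts give no direction of effect on AOX1A. The 6 include NAC016 (ANAC016, AT1G34180), named after its values were seen, which was under 1 TPM in both WW libraries and passed the filter through 7 libraries under drought. NAC13 (ANAC013, AT1G32870), a NAC factor that binds promoters of AOX1A and related genes after mitochondrial dysfunction, was at 10.5 and 10 TPM in WW, 6.38 and 6.42 at DT3, 16.7 and 14.8 at DT4, and 28.5 and 26.1 at DT5. It was called lower at DT3 (-0.60, SE 0.13, adjusted p = 0.0173) and higher at DT5 (1.33, SE 0.13, adjusted p = 1.03e-05). NAC017 (ANAC017, AT1G34190), the membrane-bound NAC factor upstream of it, chosen after its values were seen, rose from 28.9 ± 0.827 to 65.1 ± 5.09 TPM at DT5 (SD, n = 2; 1.14, SE 0.10, adjusted p = 3.93e-06). WRKY15 (AT2G23320), known as a repressor of this response, was higher at every level from DT2 (0.81, SE 0.16, adjusted p = 0.0308) to DT5 (2.00, SE 0.16, adjusted p = 1.81e-06), where it was at 114 and 95.8 TPM against 21.6 and 29.9 in WW. After rescaling WRKY15 was not called at DT2 (adjusted p = 0.0750) or DT4 (adjusted p = 0.606). MYB29 (AT5G07690), a glucosinolate regulator also known as a negative regulator of AOX1A, went from 121 and 98.6 TPM to 14.5 and 7.77 at DT5 (-3.24, SE 0.29, adjusted p = 4.76e-06).

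Genes known to rise with AOX1A after mitochondrial inhibition went in different directions. Of 14 listed genes 11 were tested, and at DT5 5 were higher and 1 lower, beside 43.4% and 28.1% of all genes, with a list median of 0.09 against 0.26 for all genes. After rescaling 5 were higher and 4 lower, beside 31.3% and 37%. UGT74E2 (AT1G05680), an auxin glycosyltransferase, was at 1.29 and 1.46 TPM in WW and 36.1 and 38.4 at DT5 (4.01, SE 0.18, adjusted p = 5.25e-08). SOT12 (AT2G03760), a sulfotransferase, was at 22.6 and 22.1 TPM in WW, 20.3 and 19.2 at DT4, and 112 and 128 at DT5 (2.37, SE 0.12, adjusted p = 9.78e-08), and AT5G43450 went from 30.1 and 37.5 to 283 and 280 TPM (3.03, SE 0.11, adjusted p = 2.22e-08). The gene that fell, chosen after its values were seen, was AT2G21640, from 12.5 and 9.41 TPM in WW to 1.81 and 1.72 at DT5 (-2.10, SE 0.23, adjusted p = 1.87e-05), where AOX1A was highest. BCS1 (AT3G50930), a mitochondrial AAA protein chosen in the same way, was higher at DT3, at 21.5 and 18.2 TPM against 5.28 and 9.75 in WW (1.34, SE 0.35, adjusted p = 0.0290), and after rescaling it was not called there (adjusted p = 0.0651). At DT5 it was at 5.28 and 2.44 TPM and was not called (-0.82, SE 0.35, adjusted p = 0.0547), and after rescaling it was lower (-1.13, adjusted p = 0.0138).

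Other listed enzymes bring electrons to ubiquinone directly or by way of another protein. Of their 12 genes 8 were higher at DT5 and 0 lower by limma, beside 43.4% and 28.1% of all genes. As many, 8, had an unadjusted p under 0.05. After rescaling 6 were higher and 0 lower, beside 31.3% and 37% of all genes. Before rescaling the list median was 1.03, against 0.26 for all genes. SDH1-1, the flavoprotein subunit of succinate dehydrogenase, was at 54.7 and 53.3 TPM in WW, 148 and 106 at DT4, and 592 and 647 at DT5 (3.49, SE 0.14, adjusted p = 3.01e-08). SDH2-1 (AT3G27380), its iron-sulfur subunit, went from 18.9 and 17.3 to 69.1 and 88.2 TPM at DT5 (2.05, SE 0.14, adjusted p = 6.40e-07). ETFBETA (AT5G43430), of the electron transfer flavoprotein that serves the breakdown of branched-chain amino acids, went from 17.9 and 19.1 to 56.8 and 68.8 TPM (1.70, SE 0.13, adjusted p = 1.63e-06).

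Among genes of the energy-conserving chain that the alternative enzymes bypass, 7 of 12 complex I subunit genes were higher at DT5 and 1 lower, beside 43.4% and 28.1% of all genes. After rescaling 6 were higher and 3 lower, beside 31.3% and 37% of all genes. Before rescaling the list median was 0.75, against 0.26 for all genes. EMB1467 (AT5G37510) went from 77.6 and 72.2 TPM to 194 and 172 (1.27, SE 0.09, adjusted p = 1.25e-06), CI51 (AT5G08530) rose by 1.09 (SE 0.08, adjusted p = 1.42e-06) and AT5G11770 by 1.93 (SE 0.13, adjusted p = 6.98e-07). Of 16 genes of complexes III and IV and cytochrome c 10 were higher and 1 lower, and 8 and 3 after rescaling, beside the same shares of all genes. Their list median before rescaling was 0.58, against 0.26 for all genes. CYTC-2 (AT4G10040), a cytochrome c, was at 26.7 and 33.7 TPM in WW, 31.7 and 30.2 at DT4, and 121 and 148 at DT5 (2.12, SE 0.14, adjusted p = 7.15e-07). The listed genes AT5G25450 and AT5G13440 rose by 3.38 (SE 0.22, adjusted p = 4.68e-07) and 1.26 (SE 0.09, adjusted p = 9.23e-07). The AOX1 genes summed to 1.75% and 1.98% of the summed TPM of these 16 genes in WW, 3.71% and 3.09% at DT4, and 8.03% and 7.16% at DT5. Both DT5 libraries lay above all others in this share, which was given no test. The sum of the 16 genes rests in part on AT3G62400, chosen after its values were seen. Its libraries stood far apart, at 430 and 48.9 TPM in WW and 35.1 and 148 at DT4, so the shares there depend on it.

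**Figure D4:**
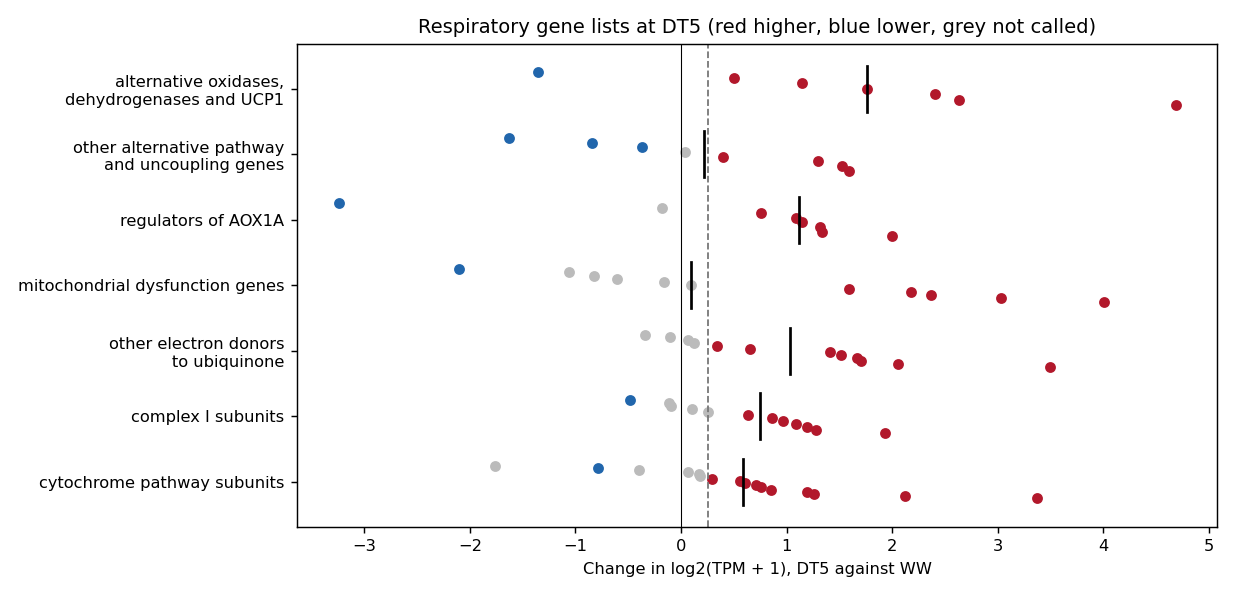
Change in log2(TPM + 1) at DT5 against WW (x axis) for each tested gene of 7 lists (rows); red points were called higher, blue lower and grey neither, black bars are list medians and the dashed line is the median of all 18938 tested genes, 0.26. The list of AOX, dehydrogenase and UCP1 genes has a median of 1.76 with NDA1 alone below 0, while the list of genes known to rise after mitochondrial inhibition spreads to both sides.

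NDA1 was the only one of the 8 genes with a circRNA in the deposited Arabidopsis table of 1354 circRNAs. It lies at chr1:2206339-2206518 on the plus strand (TAIR10 per the submitters' processing notes, positions as deposited), is annotated as exonic by the authors and spans 179 bases. Its deposited signal was 286 and 215 in WW, 193 and 207 at DT2, and 212 and 159 at DT4, and it was listed at 0 in both libraries of DT3 and of DT5. In each library all signals were multiples of 1 smallest unit, or step (within 0.02 of a whole number for 100% of values). With a step taken as 1 back-splice read, which no source states, these were 20 and 14 reads in WW, 14 and 14 at DT2 and 18 and 12 at DT4.

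In the 3 groups in which the circRNA was listed, its mean signal was 250 ± 50.1 in WW, 200 ± 10.1 at DT2 and 186 ± 37.5 at DT4 (SD, n = 2), beside means of linear NDA1 of 104, 76 and 46.6 TPM. The circRNA libraries of DT2 and DT4 overlapped, and both WW libraries lay above them, the lower at 215 against 212 in a DT4 library. In steps WW also overlapped with them, at 20 and 14 against 14 and 14 at DT2 and 18 and 12 at DT4. The order of the signals thus depends on the scale of each library. Where it was listed it ranked high, with 64 and 74 circRNAs above it in WW among 528 and 527 listed. Zeros in this table came nearly always in both libraries of a group (4048 shared zeros against 1 in a single library), so that a 0 can be a circRNA left out for the group and no limit on its level can be given. Of the 1354 circRNAs 14 were listed in the same 3 groups. No test was made.

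**Figure D5:**
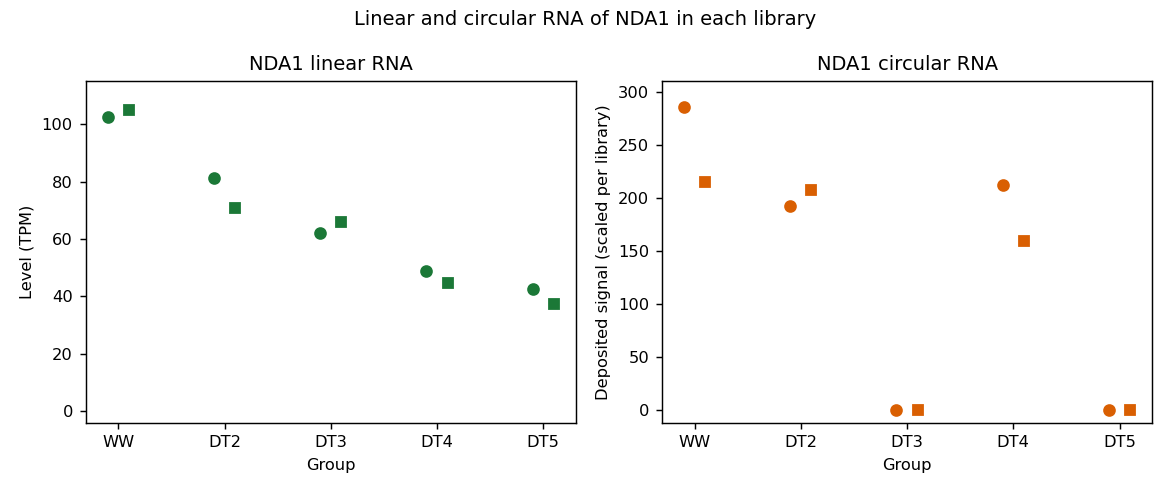
NDA1 linear RNA in TPM (left) and the deposited signal of its circRNA, scaled per library by the authors (right), in each library by group (x axis); circles and squares are libraries 1 and 2 of each group, and equal numbers do not link the panels. Linear NDA1 falls from 102 and 105 TPM to 42.4 and 37.5 TPM, while the circRNA is listed in WW, DT2 and DT4 and at 0 at DT3 and DT5.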

How the data were processed

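The authors deposited TPM for each transcript of Arabidopsis leaf RNA, a unit named in the header. For circRNA they deposited a signal that had been scaled in each library, with a scale that no source used here states. BWA, RSEM, edgeR and TAIR10 appear in the submitters' processing notes, with no version or role. RSEM divides reads shared by similar transcripts. The linear header has 1 cell more than its data lines. Its unit cell was taken for a caption. Columns carry a group and a number, and were assigned to groups and not to single samples. TPM were summed from 48359 transcripts to 27655 genes. Genes with 1 TPM in at least 2 libraries entered limma 3.58.1 (R 4.3.3) as log2(TPM + 1), all 10 libraries in one fit with a mean-variance trend, two-sided, Benjamini-Hochberg adjusted. Tables were handled in pandas 2.3.3. The fit was tried on simulated data for DT5 against WW, with 100 genes changed by 1 and 100 by 2 on the log2 scale. It called 71% and 92% of these, with 14 false calls among 18938 genes. Far fewer genes were changed there than were called at DT5 in the data. Depth is unknown.

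All 8 genes are named, with the 3 genes of each other list with the smallest F test p and the 3 most correlated with each tested gene; others are marked as chosen after their values were seen. The genes and lists were chosen with earlier results of these data known. Symbols come from RefSeq (TAIR10.1), which held all 102 listed genes. Alternatives were another pseudocount, no filter, rescaling, 4 libraries, no trend, the replicate block, 1 transcript per gene and each library left out. Maize was not used here.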

Additional observations from a re-analysis of the deposited data

How the results depend on the processing

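Of 945 values of the 7 tested genes under the alternatives, 889 kept their direction and their side of the threshold. Rescaling called 1 gene at DT2 (NDA1, in place of 0) and 2 at DT3 (NDA1 and NDB2, in place of 1), and a pseudocount of 0.1 called 2 at DT3 (AOX1D added). Leaving out single libraries gave 1 to 2 calls at DT3. Directions turned for 17 differences that were not called in either setting. Under rescaling these were AOX1A at DT2 (-0.045), at DT3 (-0.11) and between DT2 and DT3 (-0.067), NDB2 between DT2 and DT3 (-0.044), UCP1 at DT2 (-0.0014) and UCP1 between DT4 and DT5 (0.047). With single libraries left out the lowest and highest values were -0.037 and 0.11 for AOX1A and -0.065 and 0.16 for NDB2 between DT2 and DT3, -0.38 and 0.50 for AOX1C at DT2, -0.10 and 0.79 for it between DT3 and DT4 and -0.21 and 0.68 between DT4 and DT5, -0.075 and 0.15 for AOX1D at DT2, and -0.017 and 0.27 for NDA2 at DT2. The cause was not tested. 

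With the replicate block 7 genes were called at DT5, 6 at DT4 and 1 at DT3, where the call lost at DT4 was that of AOX1C, and 6 over the 5 groups. Equal numbers did not deviate together (correlations of -0.16 to 0.07 over 10 pairs of groups), so they are not taken as pairs. Over all genes the block changed the count between DT2 and DT3 from 15 to 3. TPM keep no depth, so the counting error of low genes such as AOX1C is unknown.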

Other observations

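SDH1-1 was the only other gene of the respiratory lists with a circRNA in the deposited table. This circRNA (chr5:26654064-26654413, plus strand, TAIR10 per the submitters' processing notes, positions as deposited) was listed at 23.6 and 53.1 at DT4 and at 49 and 27.4 at DT5, which are 2 to 4 steps of the libraries, and at 0 in the 6 libraries of WW, DT2 and DT3. Linear SDH1-1 was at 54.7 and 53.3 TPM in WW and at 592 and 647 TPM at DT5. In each circRNA library the smallest value above 0 was 2 steps, so the signals of this circRNA were at or near the floor. As for NDA1, a 0 can be a circRNA left out for the group. No test was made of the circRNA.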
